A study of Mus musculus with 18 samples.

Results

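Eicosanoids are signaling lipids made from the arachidonic acid of cell membranes, and histamine is an amine made from histidine. Here the transcripts of 10 genes that make or inactivate them, Ptgs1, Ptgs2, Ptges, Hpgds, Tbxas1, Hpgd, Alox5, Alox5ap, Ltc4s and Hdc, were followed in macrophages of the mouse synovium. The genes were chosen by symbol for the known role of the proteins. All 10 were among the 24421 gene rows of the count files, and 9 of them were among the 10550 genes that had enough counts to be tested. Ptges was the exception.

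Cyclooxygenases convert arachidonic acid to prostaglandin H2, which terminal synthases turn into prostaglandin E2, prostaglandin D2 or thromboxane, and prostaglandins are cleared by an oxidizing dehydrogenase. Lipoxygenase, with a membrane partner that presents its substrate, starts the parallel route to leukotrienes. In joints these lipids are known for vasodilation, edema, pain sensitization and leukocyte recruitment, and histamine, best known from mast cells and basophils, widens vessels and makes them leaky.

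The series held 18 libraries from wild-type C57BL/6 mice. Macrophages had been sorted into 3 subsets. The first was LYVE1+CX3CR1+ and negative for MHCII and Ly6C, and the other two were MHCII+ and split by CD11c into MHCII+CD11c- and MHCII+CD11c+ cells. Each subset came from untreated mice and from mice taken 8 h after intravenous immune complexes of ovalbumin and rabbit antibody to it (IC), with 3 libraries in each of the 6 groups. Every library was a pool of 6 legs from 3 mice, so that p-values measured the spread between pools, and the labels did not give the age or sex of the pools. The comparisons asked which of these enzymes each subset transcribed at rest and which of them differed after IC.

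Total counts ran from 245903 to 2172358 per library (median 1526180), and the shallowest were replicates 2 and 1 of MHCII+CD11c- IC. The 8 macrophage markers tested were found in the libraries at a summed level of 4718 to 9364 CPM (counts scaled to a common library total), and the genes of the sort followed the labels, H2-Ab1 being at 20.2 ± 0.20 CPM in untreated LYVE1+CX3CR1+ cells and 4626 ± 105 CPM in untreated MHCII+CD11c- cells (SD, n = 3). Transcripts of other leukocytes were also present. The summed neutrophil list of 11 genes lay at 13.2 to 17.2 CPM in untreated LYVE1+CX3CR1+ libraries and at 776 to 1881 CPM in untreated MHCII+CD11c- ones. MHCII+CD11c- untreated replicate 1 stood apart with 1292 CPM of eosinophil genes, against 239 CPM or less elsewhere. Several results changed without it, and for some of them the value without it is also given. In sorted bulk RNA, fewer cells of a type and less RNA per cell cannot be told apart.

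The stretches of DNA just before the listed starts of 5 of these genes are shown because their transcripts separated the subsets most clearly. Ltc4s, Hpgds, Hpgd and Alox5 were higher in LYVE1+CX3CR1+ cells and Ptgs1 was lower, as described further on. Each stretch holds the 250 bases before the start (RefSeq, GRCm38.p6), read 5′ to 3′ on the strand of the gene. Capitals mark GAGGAA or its reverse complement, the core of sites for PU.1, the ETS factor that macrophages depend on. In order, the stretches are at chr11:50238533-50238782 (minus strand), chr6:65144731-65144980 (minus), chr8:56294302-56294551 (plus), chr6:116461179-116461428 (minus) and chr2:36230176-36230425 (plus).
Ltc4s: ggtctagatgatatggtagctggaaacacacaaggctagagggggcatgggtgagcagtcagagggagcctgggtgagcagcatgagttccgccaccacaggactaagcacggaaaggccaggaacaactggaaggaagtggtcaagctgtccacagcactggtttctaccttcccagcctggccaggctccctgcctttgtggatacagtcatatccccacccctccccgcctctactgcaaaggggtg
Hpgds: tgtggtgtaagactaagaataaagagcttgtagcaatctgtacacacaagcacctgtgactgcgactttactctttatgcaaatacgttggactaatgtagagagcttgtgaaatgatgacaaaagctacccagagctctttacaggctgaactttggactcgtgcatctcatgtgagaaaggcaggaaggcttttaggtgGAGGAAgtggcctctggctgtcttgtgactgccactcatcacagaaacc
Hpgd: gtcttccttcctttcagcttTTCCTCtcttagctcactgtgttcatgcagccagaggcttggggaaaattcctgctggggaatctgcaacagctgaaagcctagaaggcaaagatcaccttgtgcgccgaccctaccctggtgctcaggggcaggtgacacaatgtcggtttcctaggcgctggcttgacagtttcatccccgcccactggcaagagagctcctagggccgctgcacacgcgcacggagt
Alox5: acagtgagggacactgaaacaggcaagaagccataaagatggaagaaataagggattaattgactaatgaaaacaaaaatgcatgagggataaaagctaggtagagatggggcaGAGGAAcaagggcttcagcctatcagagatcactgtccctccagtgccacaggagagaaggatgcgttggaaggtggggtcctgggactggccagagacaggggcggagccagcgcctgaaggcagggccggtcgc
Ptgs1: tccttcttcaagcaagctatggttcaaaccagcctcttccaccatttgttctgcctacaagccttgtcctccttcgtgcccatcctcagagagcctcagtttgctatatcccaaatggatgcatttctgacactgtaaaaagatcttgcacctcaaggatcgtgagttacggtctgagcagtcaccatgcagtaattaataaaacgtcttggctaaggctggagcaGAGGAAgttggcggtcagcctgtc
The PU.1 core began 49 bases before the start of Hpgds, 136 before that of Alox5, 230 before that of Hpgd and 24 before that of Ptgs1, and it was not in the stretch of Ltc4s.

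Stretches of this kind could be read for 9 of the 10 genes, all but Alox5ap. The PU.1 core GAGGAA, searched on both strands, was in 7 of the 9 (Ptgs1, Ptgs2, Ptges, Hpgd, Hpgds, Alox5 and Tbxas1) and in 23.3% of the 32851 RefSeq promoters of the same length. It was thus found before genes that were high in LYVE1+CX3CR1+ cells and before genes that were low there. Other motifs were less frequent. The C/EBP motif TTNNGCAA was found before Ptgs2 and Hpgds (9.56% of all promoters), and the MAF core TGCTGA (16.1%), the AP-1 motif TGANTCA (6.75%) and the TATA box TATAAA (12.4%) were found before Tbxas1, where the MAF and AP-1 matches overlapped. No stretch held the NF-kB motif, GGG and TCCC with 3 bases between them (4.77%), or the E-box CACGTG (6.02%). The listed starts of Ptgs1, Ptges, Hpgds, Tbxas1 and Hdc lie inside the annotated span of the gene, and for Hpgds and Ptgs1 so does the whole stretch shown, and a match describes letters only.

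At rest, LYVE1+CX3CR1+ macrophages carried more transcript of the leukotriene C4 route and of prostaglandin D2 synthesis and prostaglandin breakdown, and less of the cyclooxygenase Ptgs1, than both MHCII+ subsets. Less Ptgs2 than in MHCII+CD11c+ cells was also called. Against untreated MHCII+CD11c- cells, 7 of the 9 enzymes tested passed an adjusted p of 0.05 (edgeR quasi-likelihood test, Benjamini-Hochberg over all genes), where 11.4% of all genes passed. Of these, 5 were higher, as were 4.32% of all genes, and 2 were lower, as were 7.12%. The lower ones were Ptgs1 and Hdc, and Hdc was tested only through MHCII+ libraries, so its direction is a description. Without MHCII+CD11c- untreated replicate 1, 4 passed (Alox5, Hpgd, Ltc4s and Ptgs1). Against untreated MHCII+CD11c+ cells, 6 of 9 passed, against 21.8% of all genes, with 4 higher (9.48% of all genes) and 2 lower (12.4%). Between both MHCII+ subsets only Alox5 and Hpgd passed, 2 of 9 against 3.49% of all genes. Levels below are CPM scaled by TMM, a between-library correction, and are given in the order of replicates 1, 2 and 3.

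**Figure D1:**
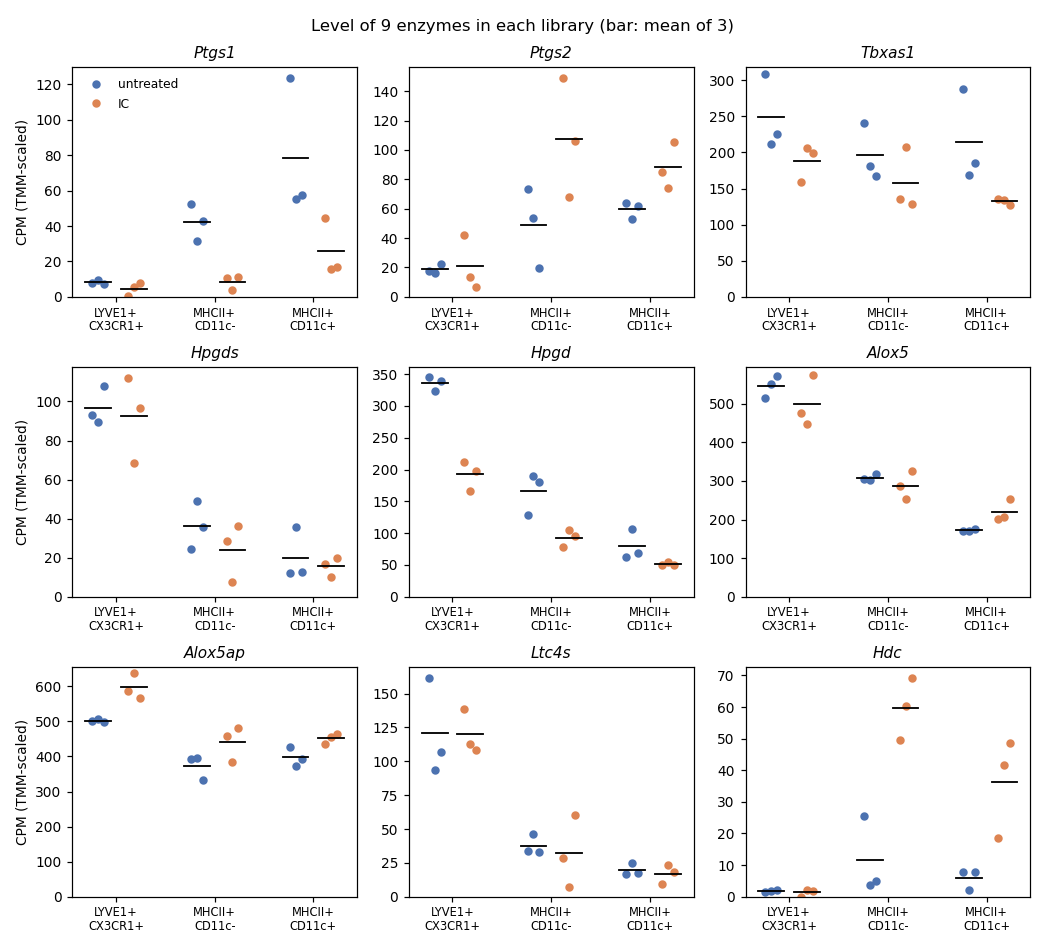
Level of the 9 tested enzymes in each library, in CPM on a linear axis from 0, by subset (x axis) and treatment (color), with a bar at the mean of 3 libraries. By group mean, Ltc4s, Hpgds, Hpgd and Alox5 step down from LYVE1+CX3CR1+ to MHCII+CD11c+ cells. Also by mean, Ptgs1 is lowest in LYVE1+CX3CR1+ cells and Hdc is highest in the MHCII+ groups after IC, though single libraries overlap.

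Ptgs1 encodes cyclooxygenase 1, the constitutive form of the enzyme (chromosome 2, 36216742 to 36258593, plus strand, GRCm38.p6). Untreated LYVE1+CX3CR1+ libraries held 8.09, 9.40 and 7.0 CPM of it, MHCII+CD11c- libraries 52.3, 31.8 and 42.9 CPM, and MHCII+CD11c+ libraries 123, 55.2 and 57.4 CPM. All LYVE1+CX3CR1+ libraries were below all MHCII+ libraries, and the counts behind the low values were 12, 15 and 13 reads. The difference was 5.17-fold against MHCII+CD11c- cells (log2 fold change −2.37 ± 0.49 SE, adjusted p = 0.00173) and 9.59-fold against MHCII+CD11c+ cells (−3.26 ± 0.47, adjusted p = 7.94e-06). Between the MHCII+ subsets the libraries did not overlap either, but the difference of 0.89 ± 0.42 did not pass (adjusted p = 0.283).

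Ptgs2 encodes cyclooxygenase 2, the form that stimuli induce (chromosome 1, 150100031 to 150108234, plus strand). It was at 17.5, 16.3 and 22.6 CPM in untreated LYVE1+CX3CR1+ libraries, 73.3, 53.8 and 19.4 CPM in MHCII+CD11c- and 64.1, 53.3 and 61.7 CPM in MHCII+CD11c+ libraries. Replicate 3 of the MHCII+CD11c- group lay within the LYVE1+CX3CR1+ range, whereas MHCII+CD11c+ libraries were all higher. Ptgs2 was 3.15-fold lower in LYVE1+CX3CR1+ than in MHCII+CD11c+ cells (−1.66 ± 0.44, adjusted p = 0.00659), and the difference from MHCII+CD11c- cells was −1.35 ± 0.46 (adjusted p = 0.0591). It passed with DESeq2 (adjusted p = 0.0488), without a filter on low counts (0.00108), with at least 10 counts in every library (0.0431), with only the libraries compared (0.0315) and with 1 surrogate variable (0.0393). Without MHCII+CD11c- replicate 3 the difference was −1.73 (adjusted p = 0.0151).

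Among the terminal synthases, hematopoietic prostaglandin D synthase (Hpgds, chromosome 6, 65117293 to 65144981, minus strand) distinguished the subsets. Untreated LYVE1+CX3CR1+ libraries held 93.0, 89.6 and 108 CPM, MHCII+CD11c- libraries 24.4, 48.9 and 35.8 CPM, and MHCII+CD11c+ libraries 12.1, 35.5 and 12.5 CPM. LYVE1+CX3CR1+ libraries were all above the rest, and the MHCII+ subsets overlapped. The excess was 2.67-fold over MHCII+CD11c- (1.41 ± 0.36, adjusted p = 0.00981) and 4.94-fold over MHCII+CD11c+ cells (2.30 ± 0.36, adjusted p = 2.89e-05). Without MHCII+CD11c- replicate 1 the former was 1.21 (adjusted p = 0.0638), and without MHCII+CD11c+ replicate 2 the latter was 2.97 (adjusted p = 2.57e-06). 

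Thromboxane A synthase, Tbxas1 (chromosome 6, 38864159 to 39084590, plus strand), showed no such pattern. Its 9 untreated libraries ranged from 168 to 309 CPM with the subsets intermingled, and LYVE1+CX3CR1+ cells differed from MHCII+CD11c- cells by 0.34 (95% interval −0.10 to 0.78) and from MHCII+CD11c+ cells by 0.21 (−0.22 to 0.64). Microsomal prostaglandin E synthase, Ptges (chromosome 2, 30889471 to 30931020, minus strand), was close to undetected. Its counts summed to 14 reads in 18 libraries, with 1, 5 and 0 in untreated and 1, 0 and 6 in IC-treated MHCII+CD11c+ cells and 1 in LYVE1+CX3CR1+ IC replicate 3. The other 13 libraries had no read, which allows up to 3 reads each for counting error alone, and a difference was not detectable at this depth.

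Hpgd, the dehydrogenase that inactivates prostaglandins (chromosome 8, 56294552 to 56321046, plus strand), was graded over the 3 subsets. It reached 346, 323 and 339 CPM in untreated LYVE1+CX3CR1+, 128, 189 and 181 CPM in MHCII+CD11c- and 62.0, 107 and 69.0 CPM in MHCII+CD11c+ libraries. No library overlapped with another subset. LYVE1+CX3CR1+ cells exceeded MHCII+CD11c- cells 2.02-fold (1.02 ± 0.19, adjusted p = 7.77e-04) and MHCII+CD11c+ cells 4.26-fold (2.09 ± 0.20, adjusted p = 1.12e-08), and MHCII+CD11c+ cells were 2.10-fold below MHCII+CD11c- cells (−1.07 ± 0.20, adjusted p = 0.00204).

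Alox5, the lipoxygenase that starts leukotriene synthesis (chromosome 6, 116410071 to 116461178, minus strand), had the same order with little scatter. Untreated LYVE1+CX3CR1+ libraries held 514, 550 and 572 CPM, MHCII+CD11c- libraries 305, 303 and 319 CPM, and MHCII+CD11c+ libraries 169, 170 and 176 CPM. The 3 subsets were fully separated. The LYVE1+CX3CR1+ level was 1.76-fold that of MHCII+CD11c- (0.82 ± 0.15, adjusted p = 4.91e-04) and 3.17-fold that of MHCII+CD11c+ cells (1.66 ± 0.15, adjusted p = 5.77e-09), and MHCII+CD11c+ cells were 1.80-fold below MHCII+CD11c- cells (−0.85 ± 0.15, adjusted p = 0.00141).

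Alox5ap, which presents arachidonic acid to the lipoxygenase (chromosome 5, 149265004 to 149288153, plus strand), was more even. It was at 500.0, 507 and 499 CPM in LYVE1+CX3CR1+, 392, 395 and 333 CPM in MHCII+CD11c- and 426, 374 and 392 CPM in MHCII+CD11c+ libraries without treatment. LYVE1+CX3CR1+ libraries were highest in each case. The excess over MHCII+CD11c- cells, 1.35-fold, passed narrowly (0.43 ± 0.14, adjusted p = 0.0453) and was lost in 14 of the 18 fits that left out a library (adjusted p up to 0.176), being kept only without MHCII+CD11c+ untreated replicate 1 or any of the MHCII+CD11c- IC libraries. The excess over MHCII+CD11c+ cells was 0.34 ± 0.14 (adjusted p = 0.0847).

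Ltc4s, the synthase that conjugates leukotriene A4 with glutathione to give leukotriene C4 (chromosome 11, 50236461 to 50238532, minus strand), had the largest excess of the leukotriene genes. Untreated LYVE1+CX3CR1+ libraries held 162, 93.4 and 107 CPM, MHCII+CD11c- libraries 33.7, 46.5 and 32.7 CPM, and MHCII+CD11c+ libraries 16.8, 25.0 and 17.4 CPM. The subsets did not overlap. LYVE1+CX3CR1+ cells exceeded MHCII+CD11c- cells 3.21-fold (1.68 ± 0.34, adjusted p = 0.00129) and MHCII+CD11c+ cells 6.14-fold (2.62 ± 0.34, adjusted p = 1.67e-06), while the step between the MHCII+ subsets, −0.94 ± 0.37, did not pass (adjusted p = 0.187). Mast cells are known to express Hpgds, Ltc4s and Alox5. The summed mast cell list of 12 genes was 7.0 to 75.2 CPM in untreated LYVE1+CX3CR1+ libraries. It was 51.3 to 265 CPM in MHCII+CD11c- and 99.3 to 194 CPM in MHCII+CD11c+ libraries. The part of mast cells in these differences was not tested.

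For some of these genes, reads can belong to a neighbor on the other strand. Exons of Alox5ap share 189 bases with Gm19719, those of Ltc4s 192 with Gm26542, those of Ptgs1 148 with Gm43621 and those of Tbxas1 144 with Gm42962. None of these opposite-strand genes has a row in the table, and because the strand setting of the counting was not given in the sources used here, the reads cannot be told apart.

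After IC, LYVE1+CX3CR1+ cells differed from MHCII+CD11c+ cells in 8 of the 9 enzymes, all but Tbxas1, against 19.7% of all genes. From MHCII+CD11c- cells they differed in 6 of 9, against 9.77%. Both counts include Hdc, tested only through MHCII+ libraries, so its lower level is a description. Against MHCII+CD11c+ cells the differences were 1.89 ± 0.21 for Hpgd, 2.54 ± 0.39 for Hpgds, 1.17 ± 0.15 for Alox5, 2.73 ± 0.36 for Ltc4s, 0.40 ± 0.14 for Alox5ap, −2.30 ± 0.53 for Ptgs1, −2.11 ± 0.44 for Ptgs2 and −4.67 ± 0.69 for Hdc. Tbxas1 was called with only the libraries compared (0.53, adjusted p = 0.0164). The Alox5ap call (adjusted p = 0.0402) was lost in 9 of the 18 fits that left out a library, with adjusted p up to 0.120. The untreated and IC groups are separate pools, and the signs were those seen without treatment.

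Against MHCII+CD11c- cells after IC, Hpgd (1.05 ± 0.22), Hpgds (1.74 ± 0.40), Alox5 (0.78 ± 0.15) and Ltc4s (1.63 ± 0.36) were higher in LYVE1+CX3CR1+ cells, and Ptgs2 (−2.41 ± 0.45) and Hdc (−5.36 ± 0.71) were lower. Ltc4s and Hpgds rested on few reads in the shallow libraries. Ltc4s was at 28.8, 7.53 and 60.1 CPM and Hpgds at 28.8, 7.53 and 36.1 CPM in MHCII+CD11c- IC libraries, with only 2 reads of each in replicate 2. Without the 2 shallowest libraries the Ltc4s difference was 1.03 (adjusted p = 0.126) and that of Hpgds 1.39 (adjusted p = 0.118), and without replicate 3 that of Ltc4s was 2.64 (adjusted p = 3.77e-04). Ptgs2 depended on LYVE1+CX3CR1+ IC replicate 1, without which the differences were −3.43 against MHCII+CD11c- and −3.11 against MHCII+CD11c+ cells. Ptgs1 was at 0.56, 5.8 and 7.68 CPM in LYVE1+CX3CR1+ and 10.5, 3.77 and 11 CPM in MHCII+CD11c- IC libraries, which overlapped (−0.96 ± 0.68, adjusted p = 0.432).

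Between MHCII+CD11c+ and MHCII+CD11c- cells after IC, edgeR called 0 of the 9 enzymes, against 2.84% of all genes. Unadjusted p was under 0.05 for 4 of them, Ltc4s, Ptgs1, Alox5 and Hpgd, and for 15.6% of all genes, and DESeq2 called 1, Hpgd. Hpgd was closest to the threshold in edgeR too (−0.84 ± 0.23, adjusted p = 0.050023), with all MHCII+CD11c+ libraries below all MHCII+CD11c- libraries.

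**Figure D2:**
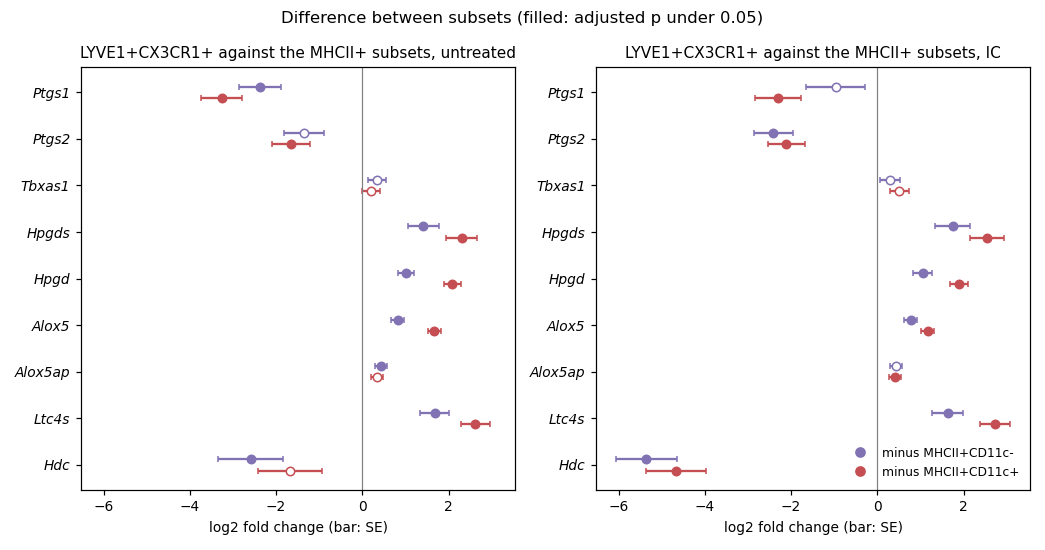
Log2 fold change of LYVE1+CX3CR1+ cells against each MHCII+ subset (x axis, bars are SE) for 9 enzymes (y axis), untreated on the left and after IC on the right, with filled points past an adjusted p of 0.05. Hpgds, Hpgd, Alox5 and Ltc4s lie right of 0 and Ptgs1, Ptgs2 and Hdc left of it in both panels.

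Transcript levels of different genes can be set side by side only per length of exon, here as CPM per kilobase. In untreated LYVE1+CX3CR1+ cells Alox5ap led with 373 ± 3.0 (SD, n = 3), followed by Hpgd (199.7 ± 6.80), Alox5 (193 ± 10.4) and Ltc4s (185 ± 55.6), which lay within each other's spread, then Tbxas1 (80.1 ± 16.9) and Hpgds (27.8 ± 2.76). Ptgs2 (4.22 ± 0.75), Ptgs1 (2.85 ± 0.42) and Hdc (0.75 ± 0.17) were far lower. In untreated MHCII+CD11c+ cells Alox5ap again led with 295 ± 19.6 CPM per kilobase, and Tbxas1 (69.0 ± 20.9), Alox5 (60.9 ± 1.30) and Hpgd (47.2 ± 14.5) came next and overlapped in their spread. There Ptgs1 (27.4 ± 13.5) reached the level of Ltc4s (30.2 ± 7.0).

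A ratio within a library needs no scaling between libraries. Alox5ap reads per Alox5 read averaged 0.923 ± 0.050 in untreated LYVE1+CX3CR1+, 1.21 ± 0.14 in MHCII+CD11c- and 2.31 ± 0.18 in MHCII+CD11c+ libraries (SD, n = 3). The ranges, 0.873 to 0.974, 1.04 to 1.30 and 2.20 to 2.52, did not overlap. After IC the means were 1.22 ± 0.22, 1.53 ± 0.054 and 2.07 ± 0.20, so MHCII+CD11c+ cells had the most partner transcript per lipoxygenase transcript in both conditions.

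Within single subsets, IC moved few of these transcripts past the threshold. In LYVE1+CX3CR1+ cells 1 of 9 passed, Hpgd, against 0.464% of all genes. In MHCII+CD11c- cells 1 of 9 passed, Hdc, against 1.06%, and in MHCII+CD11c+ cells 1 of 9 passed, again Hdc, against 0.673%. When the response was averaged over the 3 subsets, a comparison added after the data had been seen, 4 of 9 passed, Ptgs1, Hpgd and Tbxas1 lower and Hdc higher, against 6.21% of all genes. Without LYVE1+CX3CR1+ untreated replicate 1, 2 of these passed, Hpgd and Ptgs1.

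**Figure D3:**
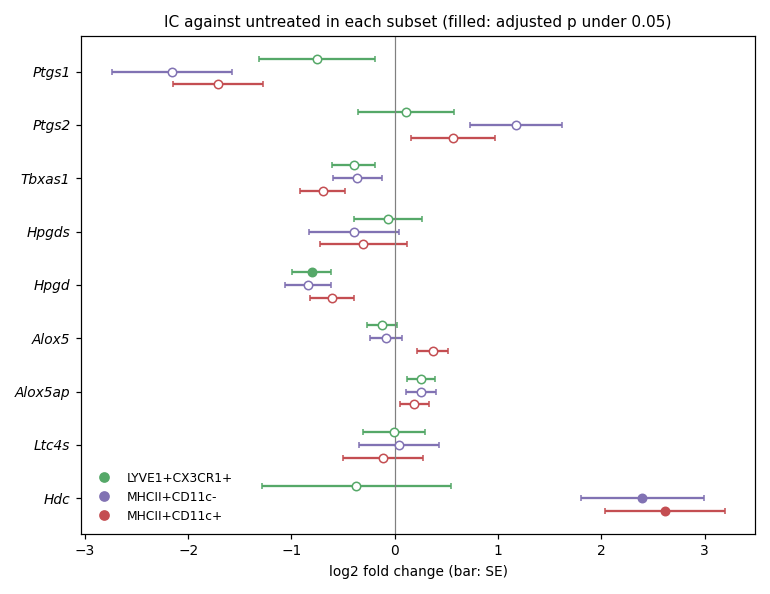
Log2 fold change of IC against untreated (x axis, bars are SE) for 9 enzymes (y axis) in each subset (color), with filled points past an adjusted p of 0.05. Ptgs1, Tbxas1 and Hpgd lie left of 0 in all 3 subsets, and Hdc lies far right of it in the MHCII+ subsets only.

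Hpgd lay below the untreated range after IC in each subset. IC libraries held 212, 167 and 198 CPM in LYVE1+CX3CR1+, 78.4, 105 and 95.1 CPM in MHCII+CD11c- and 49.4, 55.1 and 50.6 CPM in MHCII+CD11c+ cells. These are to be set against the untreated values given above, with which no subset overlapped. The decrease passed in LYVE1+CX3CR1+ cells, 1.75-fold (−0.81 ± 0.19, adjusted p = 0.0495), though in 14 of the 18 fits without a library it did not (−0.87 to −0.71, adjusted p up to 0.385), the exceptions being those without MHCII+CD11c- untreated replicate 1, MHCII+CD11c+ untreated replicate 1 or 2, or MHCII+CD11c- IC replicate 2. It was −0.84 ± 0.22 in MHCII+CD11c- cells (adjusted p = 0.0607) and −0.61 ± 0.21 in MHCII+CD11c+ cells (adjusted p = 0.263). Averaged over subsets it was −0.75 ± 0.12 (adjusted p = 2.59e-04) and stayed past the threshold in all 18 such fits (−0.81 to −0.66).

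Ptgs1 lay below the untreated range after IC in both MHCII+ subsets. It was at 10.5, 3.77 and 11 CPM in MHCII+CD11c- and 44.7, 15.7 and 17.1 CPM in MHCII+CD11c+ IC libraries. All of these were below the untreated libraries of the same subset, while in LYVE1+CX3CR1+ cells, 0.56, 5.8 and 7.68 CPM, the ranges overlapped. The differences of −2.16 ± 0.58 and −1.71 ± 0.44 in the MHCII+ subsets did not pass (adjusted p = 0.0674 and 0.0730), nor did that of −0.75 ± 0.56 in LYVE1+CX3CR1+ cells. In MHCII+CD11c- cells the difference passed with DESeq2 (adjusted p = 0.0282) and, in edgeR, without a filter (0.00131), but not with only the libraries compared. In MHCII+CD11c+ cells it passed without a filter (5.50e-04), with only the libraries compared (0.0417) and with 1 surrogate variable (0.0406), but not with DESeq2. The average over subsets, −1.54 ± 0.31, passed (adjusted p = 0.00290) and did so in all 18 fits without a library (−1.72 to −1.38). The MHCII+CD11c- IC value rested on 4, 1 and 11 reads.

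Tbxas1 was at 159, 207 and 199 CPM in LYVE1+CX3CR1+, 136, 207 and 129 CPM in MHCII+CD11c- and 136, 134 and 127 CPM in MHCII+CD11c+ IC libraries. MHCII+CD11c+ and LYVE1+CX3CR1+ libraries lay below those without treatment, and MHCII+CD11c- libraries overlapped. The 3 differences of −0.40, −0.36 and −0.70 did not pass, and their average of −0.49 ± 0.13 did (adjusted p = 0.0195), though not without LYVE1+CX3CR1+ untreated replicate 1 (−0.42, adjusted p = 0.0546).

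Ptgs2, an inducible gene, spread widely after IC. LYVE1+CX3CR1+ IC libraries held 42.3, 13.2 and 6.72 CPM, MHCII+CD11c- libraries 149, 67.8 and 106 CPM, and MHCII+CD11c+ libraries 84.8, 73.9 and 105 CPM. Only in MHCII+CD11c+ cells were all IC libraries above all untreated ones. No difference passed, the values being 0.11 (95% interval −0.85 to 1.07), 1.17 (0.26 to 2.09, adjusted p = 0.196) and 0.56 (−0.27 to 1.40). The share of Ptgs2 in the reads of both cyclooxygenases was 69.4% ± 6.53 in untreated and 71.6% ± 26.1 in IC-treated LYVE1+CX3CR1+ cells, 50.8% ± 17.2 and 92.9% ± 2.12 in MHCII+CD11c- cells, and 45.0% ± 9.5 and 78.0% ± 11 in MHCII+CD11c+ cells (SD, n = 3). In both MHCII+ subsets the share in IC libraries lay above that in every untreated library. Counting error alone was wide for the smallest counts, 18 of 19 reads in MHCII+CD11c- IC replicate 2 giving 94.7% with a 95% Wilson interval of 75.4% to 99.1%.

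No leukotriene gene passed with IC in edgeR. Alox5 was at 476, 447 and 574 CPM, 288, 252 and 324 CPM, and 202, 207 and 253 CPM in the IC libraries of LYVE1+CX3CR1+, MHCII+CD11c- and MHCII+CD11c+ cells. The MHCII+CD11c+ libraries were above their untreated counterparts (0.37 ± 0.15, adjusted p = 0.401), and the other subsets overlapped. Alox5ap, at 588, 639 and 568 CPM, 458, 384 and 482 CPM, and 437, 456 and 465 CPM, was above the untreated range in LYVE1+CX3CR1+ and MHCII+CD11c+ cells, with a mean difference over subsets of 0.23 ± 0.081 that did not pass (adjusted p = 0.0913) but did with DESeq2 (0.24, adjusted p = 0.00188), with 1 surrogate variable (adjusted p = 0.0254) and without the 2 shallowest libraries (0.28, adjusted p = 0.0269). Ltc4s differed by −0.01 (95% interval −0.62 to 0.61) in LYVE1+CX3CR1+, 0.04 (−0.76 to 0.84) in MHCII+CD11c- and −0.12 (−0.91 to 0.68) in MHCII+CD11c+ cells, and Hpgds by −0.07, −0.40 and −0.30. In MHCII+CD11c+ cells 7 of 9 enzymes had IC and untreated libraries that did not overlap, where 18.5% of all genes had none. The counts were 3 of 9 in LYVE1+CX3CR1+ cells (19.1% of all genes) and 3 of 9 in MHCII+CD11c- cells (14.2%).

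Hdc, histidine decarboxylase, the enzyme that makes histamine (chromosome 2, 126593659 to 126624025, minus strand), was the enzyme that rose with IC. Untreated libraries held 1.35, 1.88 and 2.15 CPM in LYVE1+CX3CR1+, 25.6, 3.67 and 5.11 CPM in MHCII+CD11c- and 7.88, 1.97 and 7.72 CPM in MHCII+CD11c+ cells. After IC they held 0, 2.11 and 1.92 CPM, 49.7, 60.2 and 69.1 CPM, and 18.5, 41.7 and 48.7 CPM. In both MHCII+ subsets all IC libraries were above all untreated ones, whereas LYVE1+CX3CR1+ libraries stayed at 0 to 4 reads. Hdc thus had enough counts to be tested only through MHCII+ libraries, and its lower level in LYVE1+CX3CR1+ cells is a description.

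The rise of Hdc was 5.26-fold in MHCII+CD11c- cells (2.40 ± 0.60, adjusted p = 0.0458) and 6.12-fold in MHCII+CD11c+ cells (2.61 ± 0.58, adjusted p = 0.0294). The former was lost in 13 of 18 fits without a library (1.99 to 3.73, adjusted p up to 0.160), and it was 3.73 (adjusted p = 0.00802) without untreated replicate 1, the library with eosinophil transcripts and the highest untreated value. It was also lost without the 2 shallowest libraries (2.60, adjusted p = 0.123). The latter was lost without untreated replicate 1 (2.86, adjusted p = 0.0529), 2 (2.25, adjusted p = 0.188) or 3 (2.85, adjusted p = 0.0885) and without IC replicate 2 (2.51, adjusted p = 0.112) or 3 (2.33, adjusted p = 0.177) of MHCII+CD11c+ cells. The average over subsets was 1.55 ± 0.44 (adjusted p = 0.0315, lost in 10 of 18 fits).

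In LYVE1+CX3CR1+ cells Hdc differed by −0.37 (95% interval −2.26 to 1.51) with IC, an interval that the few reads left wide. The test of the difference in response gave −2.77 ± 1.13 against MHCII+CD11c- (interval −5.11 to −0.43) and −2.99 ± 1.12 against MHCII+CD11c+ cells (−5.30 to −0.67), neither of which passed after adjustment. For all 3 such tests edgeR called 0 of 9 enzymes, as did DESeq2, against 0, 0.00948 and 0.00948% of all genes, in the order LYVE1+CX3CR1+ against MHCII+CD11c-, LYVE1+CX3CR1+ against MHCII+CD11c+ and MHCII+CD11c+ against MHCII+CD11c-. Unadjusted p was under 0.05 for Hdc in both tests named and for Alox5 in the tests with MHCII+CD11c+ cells (−0.49 ± 0.21 and 0.45 ± 0.22), where 6.52, 4.49 and 6.09% of all genes had such a p in the same order. Hdc levels after IC, compared directly, were 41.0-fold lower in LYVE1+CX3CR1+ than in MHCII+CD11c- cells and 25.4-fold lower than in MHCII+CD11c+ cells. These folds and those without treatment are descriptions, since Hdc was tested only through MHCII+ libraries. Without treatment the 6.01-fold difference from MHCII+CD11c- cells (−2.59 ± 0.76, adjusted p = 0.0237) was −1.24 (adjusted p = 0.467) without MHCII+CD11c- replicate 1, and it was also lost without LYVE1+CX3CR1+ replicate 1 (adjusted p = 0.0889), 2 (0.0683) or 3 (0.0647). Against MHCII+CD11c+ cells it was −1.68 ± 0.75 (adjusted p = 0.123).

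Neutrophils, mast cells and basophils are known to express Hdc. In MHCII+CD11c- cells the summed neutrophil list lay at 776 to 1881 CPM untreated and 1525 to 4257 CPM after IC, ranges that overlapped. In MHCII+CD11c+ cells it lay at 20.4 to 715 and 1047 to 2357 CPM, and in LYVE1+CX3CR1+ cells at 13.2 to 17.2 and 19.2 to 170 CPM. In neither of these subsets did the untreated and IC ranges overlap. The summed mast cell list overlapped between treatments in each subset, at 51.3 to 265 and 150 to 610 CPM in MHCII+CD11c-, 99.3 to 194 and 108 to 322 CPM in MHCII+CD11c+ and 7.0 to 75.2 and 6.20 to 42.3 CPM in LYVE1+CX3CR1+ cells. The basophil list of 5 genes stayed at 102 CPM or less in all libraries. In MHCII+CD11c+ cells 3 of 9 tested neutrophil genes rose (S100a8, Csf3r and Mmp8), as did 3 of 8 monocyte genes (Vcan, Plac8 and Hp) and 0 of 8 mast cell genes, and in MHCII+CD11c- cells 0 of 9, 1 of 8 (Plac8) and 0 of 8 by edgeR. For the counts of 0, DESeq2 also called 0, and unadjusted p was under 0.05 for 3 mast cell genes in MHCII+CD11c+ cells and for 4 neutrophil and 2 mast cell genes in MHCII+CD11c- cells. S100a8, an abundant neutrophil transcript, went from 35.4 ± 46.1 to 286 ± 118 CPM in MHCII+CD11c+ and from 129 ± 50.2 to 404 ± 173 CPM in MHCII+CD11c- cells, and the mast cell protease Mcpt4 from 14.6 ± 10.9 to 46.0 ± 36.0 CPM and from 20.1 ± 34.8 to 68.7 ± 31.9 CPM (SD, n = 3). Their part in the Hdc result was not tested.

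**Figure D4:**
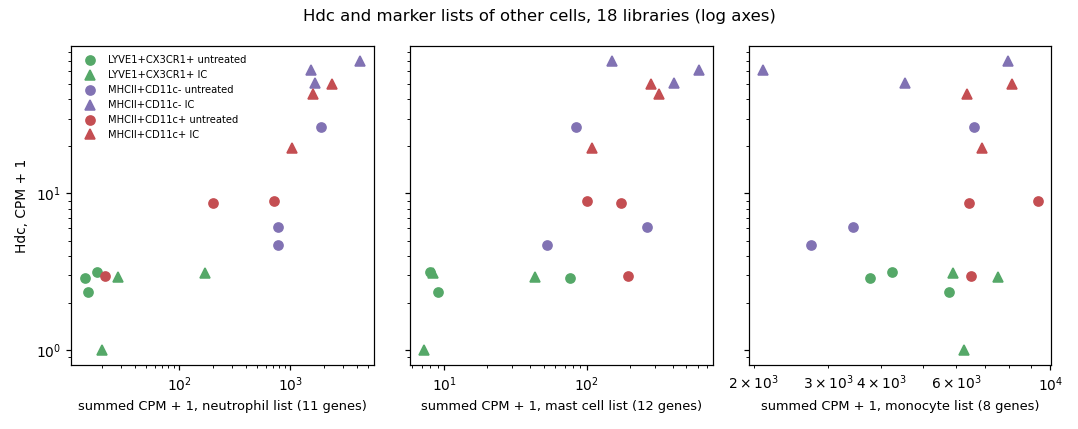
Hdc level (CPM + 1, y axis) against the summed level of a neutrophil, a mast cell and a monocyte gene list (CPM + 1, x axes), all axes logarithmic, in 18 libraries marked by subset (color) and treatment (shape). MHCII+ libraries after IC sit at the upper right of the neutrophil panel, with neutrophil sums from 1047 to 4257 CPM, and LYVE1+CX3CR1+ libraries at the lower left of it.

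Of the other genes in these pathways, 83 on 6 lists, 41 could be tested. In untreated cells 2 were higher and 8 lower in LYVE1+CX3CR1+ than in MHCII+CD11c- cells (median difference −0.01, against −0.02 for all genes). Of all genes, 4.32% were higher and 7.12% lower. Compared with MHCII+CD11c+ cells, 7 were higher and 11 lower (median 0.21, against −0.02), as were 9.48% and 12.4% of all genes. The 41 genes include Pla2g2d, Alox15, Ptgir, Ptger2, Ltb4r1 and Fpr2, which were tested only through MHCII+ libraries. The counts of lower genes are therefore a description. Of 11 genes that release arachidonic acid or handle related lipids, the lysosomal phospholipase Pla2g15 (0.78 ± 0.25 and 1.03 ± 0.24) and Abhd12 (0.76 ± 0.15 and 1.02 ± 0.15), the most abundant of its list, were higher in LYVE1+CX3CR1+ cells than in both MHCII+ subsets. Pla2g7, which hydrolyzes platelet-activating factor, was lower (−1.33 ± 0.25 and −1.70 ± 0.24). Pla2g2d, a secreted phospholipase, was at 0 in every LYVE1+CX3CR1+ library. It was higher in untreated MHCII+CD11c+ cells, by at least 44.9-fold, with the bound set at 3 reads over the group of 3 libraries. Because it could be tested only through MHCII+ libraries, its direction is a description.

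Lta4h, which takes leukotriene A4 to leukotriene B4 in place of the Ltc4s route, ran opposite to Ltc4s between LYVE1+CX3CR1+ and MHCII+CD11c+ cells. It was at 58.6, 55.8 and 68.9 CPM in untreated LYVE1+CX3CR1+, 119, 70.9 and 56.2 CPM in MHCII+CD11c- and 149, 175 and 133 CPM in MHCII+CD11c+ libraries. MHCII+CD11c+ libraries were highest, and those of LYVE1+CX3CR1+ and MHCII+CD11c- cells overlapped. Lta4h was lower in LYVE1+CX3CR1+ than in MHCII+CD11c+ cells (−1.31 ± 0.22, adjusted p = 7.14e-05) and higher in MHCII+CD11c+ than in MHCII+CD11c- cells (0.90 ± 0.23, adjusted p = 0.0240). Alox15, a lipoxygenase of another branch, was likewise lower in LYVE1+CX3CR1+ than in MHCII+CD11c+ cells (−3.55 ± 0.81). It had 0 to 11 reads in untreated LYVE1+CX3CR1+ libraries and enough counts to be tested only through MHCII+ libraries, so its direction is a description.

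The receptors for these lipids did not share a pattern between LYVE1+CX3CR1+ and MHCII+ cells. Ptgir, Ptger2, Ltb4r1 and Fpr2 had 0 to 7 reads in each LYVE1+CX3CR1+ library and had enough counts to be tested only through MHCII+ libraries, so their direction is a description. Of 3 prostanoid receptors tested, Ptgir, the prostacyclin receptor, was at 2.36 CPM on average in untreated LYVE1+CX3CR1+, 17.3 in MHCII+CD11c- and 39.5 in MHCII+CD11c+ cells, and was lower in LYVE1+CX3CR1+ cells than in both (−2.88 ± 0.78 and −4.07 ± 0.73). Ptger2, a prostaglandin E2 receptor, was at 0 in all untreated LYVE1+CX3CR1+ libraries and higher, by at least 20.4-fold, in MHCII+CD11c+ cells. Ptger4, the most abundant of the list, passed in no comparison. Of 4 leukotriene and lipoxin receptors tested, Ltb4r1, for leukotriene B4, had no read in any LYVE1+CX3CR1+ library and was higher without treatment by at least 12.4-fold in MHCII+CD11c- and by at least 75.1-fold in MHCII+CD11c+ cells. Cysltr1, a receptor for cysteinyl leukotrienes such as leukotriene C4 and its products, was lower in LYVE1+CX3CR1+ cells (−1.58 ± 0.31 and −1.54 ± 0.30), and Cmklr1, a receptor for chemerin and resolvins, was higher there than in MHCII+CD11c+ cells (1.21 ± 0.20).

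**Figure D5:**
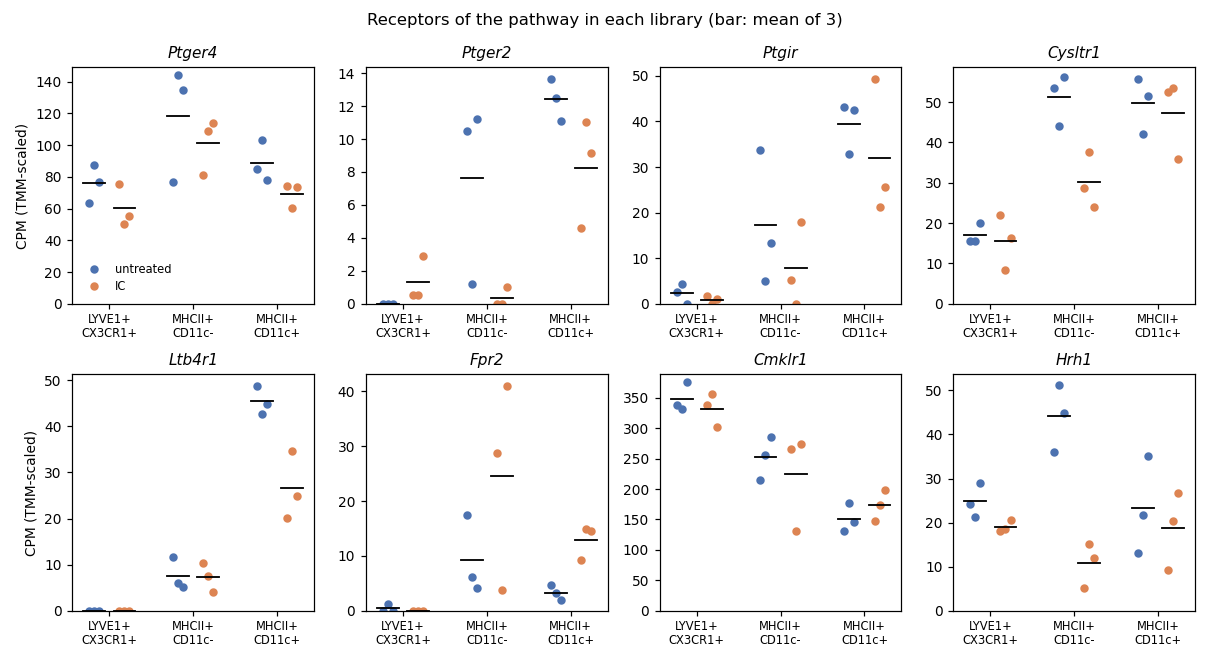
Level of 8 receptors of the pathway in each library, in CPM on linear axes from 0, by subset (x axis) and treatment (color), with a bar at the mean of 3 libraries. Ltb4r1 is at 0 in all LYVE1+CX3CR1+ libraries, and Hrh1 in MHCII+CD11c- cells lies lower after IC.

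IC moved few of these genes past the threshold. Of the 41 tested, 1 rose and 1 fell in LYVE1+CX3CR1+ cells, where 0.464% of all genes were called. In MHCII+CD11c- cells 1 fell, where 1.06% of all genes were called. In MHCII+CD11c+ cells edgeR called 0, as did DESeq2, and edgeR called 0.673% of all genes. There unadjusted p was under 0.05 for 7 of the 41 and for 9.48% of all genes. Hrh1, a histamine receptor, was at 36.0, 51.3 and 44.9 CPM in untreated and 5.23, 15.1 and 12 CPM in IC-treated MHCII+CD11c- libraries. The groups did not overlap, and Hrh1 fell by 2.02 ± 0.47 on the log2 scale (adjusted p = 0.0300). In LYVE1+CX3CR1+ cells Fam213b, a prostaglandin F synthase now also called Prxl2b, went from 27.0, 24.4 and 35.5 to 73.3, 73.3 and 56.2 CPM (1.21 ± 0.27, adjusted p = 0.0421), and Abcc1, an exporter of leukotriene C4, from 218, 212 and 193 to 111, 106 and 131 CPM (−0.84 ± 0.18, adjusted p = 0.0298). The libraries of both genes did not overlap between treatments.

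The genes whose log2 CPM most resembled that of each enzyme over the 18 libraries are given as a description, since the libraries share 6 group means. Ltc4s was most like Grn (r = 0.968) and Tcn2 (0.962), Hpgds like Tns1 (0.956) and Ski (0.952), Alox5 like Timp2 (0.974) and Vcan (0.974), and Hpgd like Cd33 (0.966) and Chd9 (0.955). Ptgs1 was most like Fnbp1 (0.947) and Rbpj (0.922), Ptgs2 like Tmem51 (0.909) and Rbm38 (0.880), Alox5ap like Ncf1 (0.915) and Anxa4 (0.909), and Tbxas1 like Fam20c (0.846) and Msmo1 (0.784). Hdc was most like Ly6c2 (0.941) and Hp (0.937). Both are on the monocyte list, whose most abundant member was Fn1 and which also holds Vcan, given above among the genes most like Alox5. The summed list after IC was at 5896 to 7538 CPM in LYVE1+CX3CR1+ libraries, where Hdc was at 0 to 2.11 CPM. It was at 2097 to 7951 CPM in MHCII+CD11c- and 6351 to 8124 CPM in MHCII+CD11c+ IC libraries. The part of monocytes in the Hdc result was not tested. Among the enzymes themselves the closest pairs were Hpgds with Ltc4s (0.933), Alox5 with Ltc4s (0.874) and Hpgds with Alox5 (0.872), and Hdc was closest to Ptgs2 (0.757).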

How the data were processed

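Raw counts were used as the authors deposited them. Per the study's methods, RNA of sorted cells was made into stranded total RNA libraries and sequenced in pairs, and the authors trimmed the reads (Trim Galore), checked them (FastQC), aligned them to mm10 (HISAT2) and counted them per gene (featureCounts). Versions, annotation and strand setting were not given in the sources used here. Such counts depend on library depth, which ranged from 245903 to 2172358.

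Counts were fitted in R 4.3.3 with edgeR 4.0.16 (TMM factors, filterByExpr, quasi-likelihood test), all 18 libraries entering one fit with a mean for each of the 6 groups, and p-values were adjusted by Benjamini-Hochberg over the 10550 genes tested in each comparison (threshold 0.05). The 12 planned comparisons were of subsets within a treatment, of IC with untreated within a subset, and of the IC responses. SE was the size of the log2 fold change divided by the square root of F. CPM was scaled by TMM factors. The fit was tested on simulated counts. Alternatives used DESeq2 1.42.0, sva 3.50.0, other filters and samples, and each library left out.

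All 10 enzymes were named. From the pathway lists, called genes and the most abundant gene of a list were eligible to be named, and so were list markers with the highest level and the 2 tested genes most like each enzyme (Pearson r of log2 CPM). Csf3r, Mmp8, Vcan, Plac8, Hp, S100a8, Mcpt4 and H2-Ab1 were named after their values had been seen. The enzymes and lists were chosen with earlier results of these data known. Promoter sequences came from RefSeq (GRCm38.p6) and exon lengths from GENCODE.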

Additional observations from a re-analysis of the deposited data

How the results depend on the processing

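Of the enzyme fold changes recomputed under other settings, 2816 kept their direction and their side of the threshold, 78 lost their call, 62 gained one and 93, of enzymes uncalled in that comparison, changed sign. The calls of Hpgds, Hpgd, Alox5 and Ltc4s rested on libraries as shallow as 245903 counts, and where a result changed the cause was not tested, apart from enzymes that a stricter filter left out of the test. The number of genes called with IC was 49 in LYVE1+CX3CR1+, 112 in MHCII+CD11c- and 71 in MHCII+CD11c+ cells with edgeR and 158, 268 and 149 with DESeq2. Without a filter it was 160, 337 and 250, and with only the libraries compared 272, 19 and 170.

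With at least 10 counts required in every library, Hdc, Ptgs1, Hpgds and Ltc4s could not be tested, and the enzymes called were 4 (7 as reported) for LYVE1+CX3CR1+ against untreated MHCII+CD11c- cells, 4 (8) for LYVE1+CX3CR1+ against MHCII+CD11c+ cells after IC, 1 (0) for MHCII+CD11c+ against MHCII+CD11c- cells after IC, 0 (1) for IC in MHCII+CD11c+ cells and 2 (4) for IC over the 3 subsets. For MHCII+CD11c+ against MHCII+CD11c- cells after IC, 1 enzyme, Hpgd, was also called with DESeq2 size factors, DESeq2 or no filter, and 1, Ltc4s, without the 2 shallowest libraries, a fit in which the lone MHCII+CD11c- IC library is assumed to vary like the other groups. For IC in MHCII+CD11c- cells 3 were called with DESeq2, 4 without a filter, 2 with 1 surrogate variable, and 0 with only the libraries compared or without the 2 shallowest. For IC in MHCII+CD11c+ cells 2 were called without a filter, with only the libraries compared, with 1 surrogate variable or without the 2 shallowest. With DESeq2 size factors, the genes called between LYVE1+CX3CR1+ and MHCII+CD11c- cells after IC went from 2 to 1 on the list that releases arachidonic acid and from 1 to 2 among prostanoid receptors, and between the MHCII+ subsets after IC from 1 to 0 among leukotriene and lipoxin receptors.

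Same-numbered libraries of a treatment deviated together little, though r was mostly positive (18 pairs, r from −0.046 to 0.132, median 0.036, 1 pair over 0.1, against a median of −0.025 for different numbers). The numbers were not taken as pairs, but small r cannot show that the pools were separate. The labels do not say whether same-numbered libraries came from the same pool. With the replicate block (number), 0 enzymes were called for IC in MHCII+CD11c- cells (Hdc 2.39, adjusted p = 0.0592), 1 (Hpgd) between the MHCII+ subsets after IC, and Ptgs2 with IC in LYVE1+CX3CR1+ cells was −0.033 and the Alox5ap response difference between LYVE1+CX3CR1+ and MHCII+CD11c- cells −0.00031. With the replicate block (pool of mice) that comparison of MHCII+ subsets again had 1 (Hpgd), Ptgs2 passed between LYVE1+CX3CR1+ and untreated MHCII+CD11c- cells (−1.29, adjusted p = 0.0466), Tbxas1 between LYVE1+CX3CR1+ and MHCII+CD11c+ cells after IC (0.51, adjusted p = 0.0345), and the Ltc4s response difference between LYVE1+CX3CR1+ and MHCII+CD11c- cells was 0.045. Genes called with IC under the number block were 60, 120 and 79 in the order above.

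The other sign changes are given on the log2 scale. With DESeq2, Alox5ap between the MHCII+ subsets after IC was −0.0058, Ltc4s with IC in MHCII+CD11c- cells −0.015, and the response difference of LYVE1+CX3CR1+ and MHCII+CD11c- cells −0.031 for Alox5ap and 0.0034 for Ltc4s. For Alox5ap that difference was −0.013 with DESeq2 size factors and −0.036 with 1 surrogate variable, and for Tbxas1 0.0090 with at least 10 counts and 0.080 with 1 surrogate variable. With 1 surrogate variable Alox5ap between the MHCII+ subsets after IC was −0.018. Ltc4s with IC was 0.013 in LYVE1+CX3CR1+ cells without a filter and −0.057 in MHCII+CD11c- cells with only the libraries compared. Without the 2 shallowest libraries, Alox5ap was −0.087 and Tbxas1 0.035 between the MHCII+ subsets after IC, Ltc4s with IC was 0.0097 in LYVE1+CX3CR1+ cells and 0.20 over the 3 subsets, Hpgds 0.0057 and Alox5 0.083 in MHCII+CD11c- cells, the response difference of LYVE1+CX3CR1+ and MHCII+CD11c- cells −0.11 for Alox5ap, 0.21 for Tbxas1 and −0.055 for Hpgds, and that of the MHCII+ subsets −0.29 for Hpgds.

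With each library left out in turn, the enzymes called ranged from 4 to 8 for LYVE1+CX3CR1+ against untreated MHCII+CD11c- cells, 0 to 1 between the MHCII+ subsets after IC, 0 to 1, 0 to 2 and 0 to 2 with IC in LYVE1+CX3CR1+, MHCII+CD11c- and MHCII+CD11c+ cells, and 2 to 5 over the 3 subsets. Fold changes that changed sign ranged, between the untreated MHCII+ subsets, from −0.087 to 0.73 for Ptgs2, −0.14 to 0.30 for Tbxas1 and −1.31 to 0.43 for Hdc, and after IC from −0.042 to 0.10 for Alox5ap and −0.35 to 0.015 for Tbxas1. With IC they ranged from −0.92 to 0.54 for Ptgs2, −0.22 to 0.11 for Hpgds, −0.16 to 0.26 for Ltc4s and −0.77 to 0.15 for Hdc in LYVE1+CX3CR1+ cells, from −0.95 to 0.35 for Ltc4s in MHCII+CD11c- cells, from −0.62 to 0.36 for Hpgds and −0.40 to 0.091 for Ltc4s in MHCII+CD11c+ cells, and from −0.36 to 0.078 for Ltc4s over the 3 subsets. Response differences ranged from −0.063 to 0.21 for Hpgd, −0.15 to 0.094 for Alox5, −0.070 to 0.11 for Alox5ap, −0.35 to 0.95 for Ltc4s and −0.19 to 0.18 for Tbxas1 between LYVE1+CX3CR1+ and MHCII+CD11c- cells, from −0.43 to 0.56 for Hpgds and −0.10 to 0.40 for Ltc4s between LYVE1+CX3CR1+ and MHCII+CD11c+ cells, and from −0.095 to 0.96 for Ptgs1, −0.22 to 0.76 for Hpgds, −0.14 to 0.016 for Alox5ap, −0.46 to 0.82 for Ltc4s and −1.13 to 0.62 for Hdc between the MHCII+ subsets.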
